A study of Mus musculus with 6 samples.

Results

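Type I interferon antiviral genes are described here in lymphatic endothelial cells of mouse melanomas that lacked or kept Ch25h. The set is a list of 35 symbols, chosen with earlier results of these data known. All 35 are among the 13454 genes of the expression table. Expression came from 6 RNA-seq libraries of cells sorted from the tumours by CD31 and GP38 (podoplanin) without CD45. Ch25h KO (3 libraries) stands for recipient mice in which Ch25h was deleted in the lymphatic endothelium alone, and WT (3 libraries) for littermates that kept it. All recipients carried transplanted B16-OVA-VEGFC tumours, a melanoma line that drives lymphatic growth, so the tumour is common to both groups. The sources used here do not give the strain, the ages, the Cre driver, the day of harvest or whether a library pooled several animals. Nor do the labels say that libraries of a genotype are separate animals, and the tests therefore rest on a spread between libraries that may be technical.

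Type I interferons signal through the receptor chains IFNAR1 and IFNAR2 and the kinases JAK1 and TYK2. The signal leads to a complex that holds STAT2 and IRF9 and binds interferon-stimulated response elements in promoters. The targets sense viral nucleic acid, block viral entry and translation and modify host proteins, and many of them are also induced more weakly by interferon gamma, whose signal acts at gamma-activated sequences. Ch25h is itself known as an interferon-induced gene in myeloid cells, and its product 25-hydroxycholesterol restricts the entry of enveloped viruses.

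The response element was read in promoters from RefSeq (GRCm38.p6), which were at hand for 25 of the 35 genes as windows of 250 bases before and 50 bases after the start. Its core was taken as GAAA, any 2 bases and GAAA again, on either strand (TTTC, any 2 bases and TTTC on the other), with overlapping matches kept. It was present in the windows of 12 of these 25 genes (48%), against 3.79% of the 9567 tested genes with a window. Counted in the 250 upstream bases alone, it was in 8 of 25 (32%), against 3.24% of the 9567. TTCNNNGAA, the gamma-activated sequence, which reads the same on both strands, was in 7 of 25 windows (28%), against 8.16%. In Bst2 and Ifitm3 matches of the 2 kinds overlapped. A match is a run of letters and was not tested as a binding site. The 6 genes with an upstream match and the smallest limma p are printed 5′ to 3′ on the strand of the gene. Every match to the core is in capitals. They were picked for holding the match and place it relative to the start.
Ifit1: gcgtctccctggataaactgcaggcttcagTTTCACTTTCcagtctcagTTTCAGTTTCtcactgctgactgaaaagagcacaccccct
Oas3: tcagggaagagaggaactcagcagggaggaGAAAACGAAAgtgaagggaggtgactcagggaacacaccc
Stat2: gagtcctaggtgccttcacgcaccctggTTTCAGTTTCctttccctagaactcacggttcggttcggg
Isg15: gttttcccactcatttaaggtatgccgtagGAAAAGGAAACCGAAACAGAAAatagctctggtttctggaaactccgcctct
Bst2: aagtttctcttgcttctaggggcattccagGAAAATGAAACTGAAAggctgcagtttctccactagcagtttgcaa
Ifit3: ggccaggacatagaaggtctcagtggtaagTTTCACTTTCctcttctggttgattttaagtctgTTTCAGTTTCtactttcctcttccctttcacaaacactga
The stretches are chr19:34640755-34640843 (plus strand) for Ifit1, chr5:120777695-120777764 (minus) for Oas3, chr10:128270248-128270315 (plus) for Stat2, chr4:156200845-156200926 (minus) for Isg15, chr8:71537557-71537632 (minus) for Bst2 and chr19:34583343-34583446 (plus) for Ifit3. Ifit1 and Ifit3 each hold 2 separate matches, which begin 104 and 85 bases before the start in Ifit1 and 156 and 122 bases before it in Ifit3. Isg15 holds 3 matches that run into each other and begin 78, 72 and 66 bases before the start. Oas3 holds a single match, 75 bases before the start. The 8 genes with an upstream match had a median log2 fold change of 0.16 and the 17 without one a median of -0.11, and no test was made of this split.

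The libraries held 36556824 to 42542360 reads in Ch25h KO and 41736922 to 46165273 reads in WT, recovered from the deposited values as processing describes. Ch25h was listed at 0, 0.0232 and 2.95 CPM in libraries 1, 2 and 3 of Ch25h KO, against 82.9, 88.8 and 106 CPM in libraries 1, 2 and 3 of WT. It was lower in every Ch25h KO library than in any WT library (log2 fold change -5.87 ± 0.47 SE; limma, adjusted p = 0.00365), and library 3 of the knockout kept 117 reads. The call was lost in edgeR (adjusted p = 0.852), in DESeq2 (adjusted p = 0.211), with a pseudocount of 0.25 (limma, adjusted p = 0.0779) and without WT library 1 (limma, adjusted p = 0.0792). The lymphatic markers Prox1 (234 to 387 CPM in Ch25h KO, 243 to 558 CPM in WT) and Lyve1 (2446 to 3794 CPM in Ch25h KO, 2280 to 2771 CPM in WT) were detected in all libraries. Leukocyte RNA was low and uneven: the 16 leukocyte markers in the table summed to 51.9 to 289 CPM in Ch25h KO and to 45.4 to 402 CPM in WT. Fcer1g made up 200.1 CPM of the 289 CPM, in Ch25h KO library 3, and Lyz2 made up 156 CPM of the 402 CPM, in WT library 1. Ptprc, which encodes CD45, was listed at 0 in Ch25h KO library 1 and WT library 2, and at 0 were also Csf1r in the first and Emr1, the macrophage marker F4/80, in the second. Ch25h KO library 2 held 19.7 CPM of Ptprc and 13.1 CPM of the B-cell gene Cd79a.

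No antiviral gene passed the test. The comparison asks whether the antiviral programme of tumour lymphatic endothelium differed once Ch25h was missing there. Values are CPM, reads scaled to library size, and each gene was compared with limma on log2(CPM + 1), with p-values adjusted by Benjamini-Hochberg over the 11980 genes whose mean was at least 1 CPM. All 35 genes met that minimum, with means above 5 CPM and at least 74 reads in every library. At an adjusted p under 0.05, 0 of 35 were called higher and 0 lower, where 0.00835% of all tested genes (Ch25h alone) were called. The smallest adjusted p among the 35 was 0.836 in limma, 0.872 in edgeR and 0.492 in DESeq2, each for Parp14. At an unadjusted p under 0.05 there were 3 of 35 (8.57%), against 5.41% of all genes, and 3 each in edgeR and DESeq2. In limma 1 of the 3 was higher, where 1.62% of all genes were, and 2 were lower, where 3.79% of all genes were. The count of 3 moved to 1 without Ch25h KO library 1, 6 without WT library 1 (1288 of all genes, against 648 with all libraries), 0 without WT library 3 (252 of all genes), 2 without library 3 of both groups, 1 with no trend in the variance prior and 8 with library weights (1945 of all genes). The groups did not overlap in 2 of 35 (5.71%), against 10.2% of all genes.

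The signs split evenly over the 6 libraries, and the split moved with the libraries kept. Means on the log2 scale were higher in Ch25h KO for 18 genes and lower for 17, with a median log2 fold change of 0.01, against -0.0021 over all tested genes. The tally was 10 higher and 25 lower without Ch25h KO library 1, 8 higher and 27 lower without WT library 2, and 29 higher and 6 lower without library 3 of both groups. With all libraries the range was -0.84 for Oas3 to 0.56 for Mx2. The 95% interval of the fold change included 0 in 32 genes and lay wholly inside -1 to 1, that is within a doubling or halving on this scale, in 28. These intervals bound the differences that 3 libraries a group can show and do not show that the genotypes are alike.

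**Figure D1:**
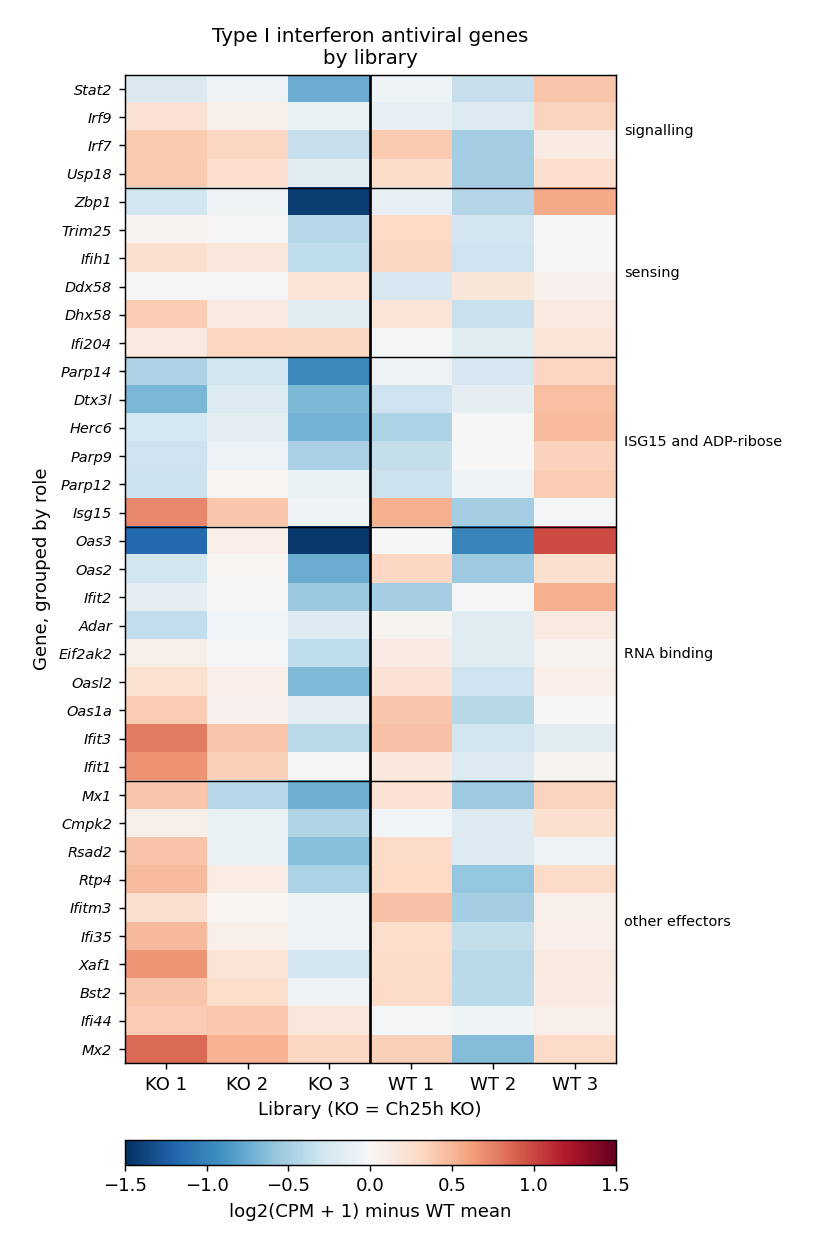
Each cell gives log2(CPM + 1) of a gene in a library minus its mean over the 3 WT libraries, with Ch25h KO libraries left of WT libraries and genes grouped by role and ordered by fold change. Ch25h KO library 3 and WT library 2 are the paler or bluer columns of their groups, and Oas3 and Zbp1 show the strongest blue in Ch25h KO library 3.

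**Figure D2:**
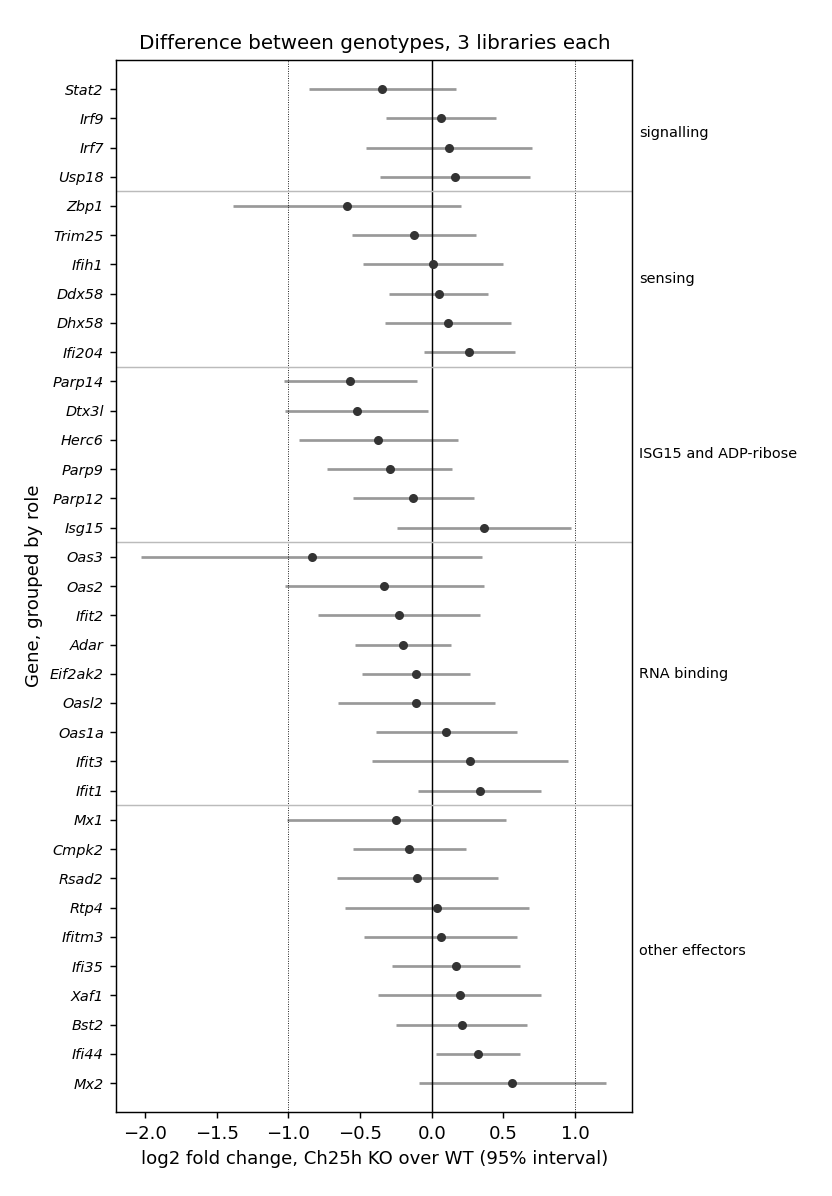
Points give the log2 fold change of Ch25h KO over WT from limma, and bars the 95% interval, with dotted lines at -1 and 1. The intervals of 32 of 35 genes cross 0, and the exceptions are Parp14 and Dtx3l below it and Ifi44 above it.

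Genes that relay or restrain the signal differed little between the genotypes. Stat2, a subunit of the complex that binds the response element, was at 125, 138 and 86.5 CPM in libraries 1, 2 and 3 of Ch25h KO, against 139, 115 and 194 CPM in libraries 1, 2 and 3 of WT. Ch25h KO library 3 was the lowest and WT library 3 the highest, and the other 4 lay between them (log2 fold change -0.34 ± 0.23 SE; limma, adjusted p = 0.973). Irf7, the transcription factor that amplifies interferon production, stood at 351, 330 and 210 CPM in Ch25h KO and at 349, 186 and 290 CPM in WT. Usp18, the protease that removes ISG15 and dampens the receptor, stood at 221, 200 and 150 CPM in Ch25h KO and at 203, 116 and 199 CPM in WT. Both overlapped throughout, with log2 fold changes of 0.12 ± 0.26 for Irf7 and 0.16 ± 0.23 for Usp18 (SE). Irf9, the DNA-binding partner of STAT2, averaged 172 ± 18.7 CPM in Ch25h KO, against 166 ± 35.4 CPM in WT (SD, n = 3 each). Of these 4 genes 3 had a higher mean in Ch25h KO and 1 a lower one, with a median of 0.09, which was -0.12 without WT library 2 and 0.36 without library 3 of both groups.

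Sensors of viral nucleic acid had a higher mean in Ch25h KO in 4 of 6 genes, with a median of 0.03, which was -0.10 without WT library 2 and 0.16 without library 3 of both groups. Ifih1, which encodes the RNA sensor MDA5, averaged 51.9 ± 11.5 CPM in Ch25h KO, against 51.4 ± 11.2 CPM in WT (SD, n = 3 each), and Ddx58, which encodes RIG-I, averaged 115 ± 10.7 CPM in Ch25h KO, against 111 ± 16.5 CPM in WT. Their log2 fold changes were 0.01 (95% interval -0.48 to 0.50) and 0.05 (-0.30 to 0.39). Zbp1, a sensor of left-handed nucleic acid that can start necroptosis, was at 239, 278 and 107 CPM in libraries 1, 2 and 3 of Ch25h KO, against 266, 214 and 430 CPM in libraries 1, 2 and 3 of WT. Library 3 was the lowest in Ch25h KO and the highest in WT, and the other 4 values overlapped (log2 fold change -0.59 ± 0.35 SE; limma, adjusted p = 0.964). Without library 3 of both groups the fold change of Zbp1 was 0.11. Ifi204, a member of the DNA-binding p200 family, stood at 129, 146 and 145 CPM in Ch25h KO and at 114, 104 and 133 CPM in WT. Its values overlapped at the lowest Ch25h KO library alone (log2 fold change 0.26 ± 0.14 SE; limma, adjusted p = 0.941). Dhx58, which encodes the RIG-I relative LGP2, and Trim25, a ubiquitin ligase that acts with RIG-I, had log2 fold changes of 0.11 and -0.13.

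The group of ISG15 and ADP-ribosylation genes had a lower mean in Ch25h KO in 5 of its 6 members, with a median of -0.33, and none passed. This leaned on library 3: without WT library 3 the median was -0.13 with 4 of 6 lower, and without library 3 of both groups it was 0.0063 with 3 of 6 lower. Parp14, a mono-ADP-ribosyltransferase, was at 109, 122 and 76.9 CPM in libraries 1, 2 and 3 of Ch25h KO, against 143, 126 and 187 CPM in libraries 1, 2 and 3 of WT. Every Ch25h KO value was below every WT value, by a narrow gap between library 2 of each group (log2 fold change -0.57 ± 0.21 SE; limma, adjusted p = 0.836; exact permutation p = 0.1, the smallest that 3 libraries against 3 allow). It was the single antiviral gene that was lower with no overlap, where 5.78% of all tested genes were. Dtx3l, a ubiquitin ligase that works as a dimer with PARP9, stood at 43.3, 60.9 and 43.5 CPM in Ch25h KO and at 56.7, 63.6 and 96.1 CPM in WT. Ch25h KO library 2 overlapped WT library 1 (log2 fold change -0.52 ± 0.22 SE; limma, adjusted p = 0.907), and the fold change of Dtx3l was -0.30 without WT library 3. Parp9, its partner, averaged 86.1 ± 12 CPM in Ch25h KO, against 107 ± 26 CPM in WT (SD, n = 3 each). The 3 genes are neighbours on chromosome 16 of mm10: Dtx3l lies at 35926511 to 35939151 and Parp14 at 35832874 to 35871544 on the minus strand, and Parp9 at 35938470 to 35972605 on the plus strand. Exons of Parp9 and Dtx3l overlap by 458 bases, where a library without strand cannot assign reads.

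Isg15, the ubiquitin-like modifier itself, differed from the rest of this group in sign. It stood at 227, 184 and 132 CPM in libraries 1, 2 and 3 of Ch25h KO, against 199, 96.1 and 135 CPM in libraries 1, 2 and 3 of WT. The groups overlapped, with WT library 2 the lowest of all (log2 fold change 0.36 ± 0.27 SE; limma, adjusted p = 0.973), and the fold change of Isg15 was 0.11 without that library. Herc6, the ligase that attaches ISG15 in mice, averaged 54.9 ± 11.1 CPM in Ch25h KO, against 73 ± 24.2 CPM in WT (SD, n = 3 each). Parp12, a mono-ADP-ribosyltransferase like Parp14, averaged 147 ± 17.8 CPM in Ch25h KO, against 164 ± 40.9 CPM in WT.

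RNA-binding and RNA-editing effectors had a median of -0.11, with 3 of 9 higher and 6 lower in Ch25h KO. The median was -0.24 without WT library 2 and 0.20 without library 3 of both groups. Ifit1, which binds viral RNA without the host cap methylation, was at 135, 108 and 83.2 CPM in libraries 1, 2 and 3 of Ch25h KO, against 94.7, 73 and 87.3 CPM in libraries 1, 2 and 3 of WT. Ch25h KO library 3 lay inside the WT range and the other Ch25h KO libraries above it (log2 fold change 0.33 ± 0.19 SE; limma, adjusted p = 0.955). Ifit2, a family member that promotes apoptosis, stood at 176, 195 and 131 CPM in Ch25h KO and at 136, 190 and 279 CPM in WT, with a log2 fold change of -0.23 ± 0.25 (SE). The third family member, Ifit3, averaged 33.6 ± 13.1 CPM in Ch25h KO, against 26.9 ± 7.8 CPM in WT (SD, n = 3 each), with a log2 fold change of 0.27 that was 0.011 without Ch25h KO library 1.

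Oas3 had the lowest level and the widest spread of the set. This enzyme makes the oligoadenylates that switch on RNase L. It was at 2.49, 7.36 and 1.87 CPM in libraries 1, 2 and 3 of Ch25h KO, from 93, 317 and 74 reads, against 6.87, 2.93 and 14.4 CPM in libraries 1, 2 and 3 of WT. The groups overlapped, and WT library 3 was the highest (log2 fold change -0.84 ± 0.53 SE, 95% interval -2.03 to 0.35; limma, adjusted p = 0.969). Without library 3 of both groups its fold change was -0.04. Its paralogs Oas1a, Oas2 and Oasl2 had log2 fold changes of 0.10, -0.33 and -0.11. Eif2ak2, the kinase PKR that stops translation on double-stranded RNA, averaged 69.3 ± 11.6 CPM in Ch25h KO, against 74.3 ± 8.03 CPM in WT (SD, n = 3 each). Adar, which edits adenosine to inosine in such RNA, averaged 91.9 ± 10.4 CPM in Ch25h KO, against 106 ± 11.6 CPM in WT.

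Among the other effectors 7 of 10 had a higher mean in Ch25h KO, with a median of 0.12, which was -0.10 without WT library 2 and 0.36 without library 3 of both groups. Ifi44, a widely used marker of the interferon response, was at 231, 235 and 199 CPM in libraries 1, 2 and 3 of Ch25h KO, against 174, 169 and 188 CPM in libraries 1, 2 and 3 of WT. Every Ch25h KO value was above every WT value (log2 fold change 0.32 ± 0.13 SE; limma, adjusted p = 0.892; exact permutation p = 0.1, the smallest possible here). It was the single antiviral gene that was higher with no overlap, where 4.38% of all tested genes were. Mx2, a dynamin-like GTPase that is cytoplasmic in mice, stood at 23.1, 18.2 and 15.7 CPM in Ch25h KO and at 16.2, 7.53 and 15.4 CPM in WT. The lowest Ch25h KO value lay inside the WT range, and WT library 2 was low (log2 fold change 0.56 ± 0.29 SE; limma, adjusted p = 0.941), and without that library the fold change of Mx2 was 0.24. Its neighbour Mx1, the nuclear GTPase that restricts influenza virus in mice, had a log2 fold change of -0.25 ± 0.34 (SE).

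Ifitm3, a membrane protein that blocks virus entry from endosomes, was the most abundant antiviral transcript. It stood at 2306, 1992 and 1845 CPM in libraries 1, 2 and 3 of Ch25h KO, against 2640, 1369 and 2059 CPM in libraries 1, 2 and 3 of WT, where all Ch25h KO values lay inside the WT range (log2 fold change 0.06 ± 0.24 SE). Per kilobase of exon it reached 3020 CPM in Ch25h KO, against 2983 CPM in WT. Bst2, the tetherin that holds budding virions at the membrane, followed with 918 CPM per kilobase in Ch25h KO and 803 in WT, and Isg15 with 239 in Ch25h KO and 189 in WT. The log2 fold change of Bst2 was 0.21, and 0.0078 without WT library 2. Rsad2, the viperin enzyme that makes a chain-terminating nucleotide, and its neighbour Cmpk2, a nucleotide kinase, had log2 fold changes of -0.10 and -0.16. Ifi35, Xaf1 and Rtp4 had log2 fold changes of 0.17, 0.19 and 0.04. Oas3 was the lowest per length, at 0.553 CPM per kilobase in Ch25h KO and 1.14 in WT.

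**Figure D3:**
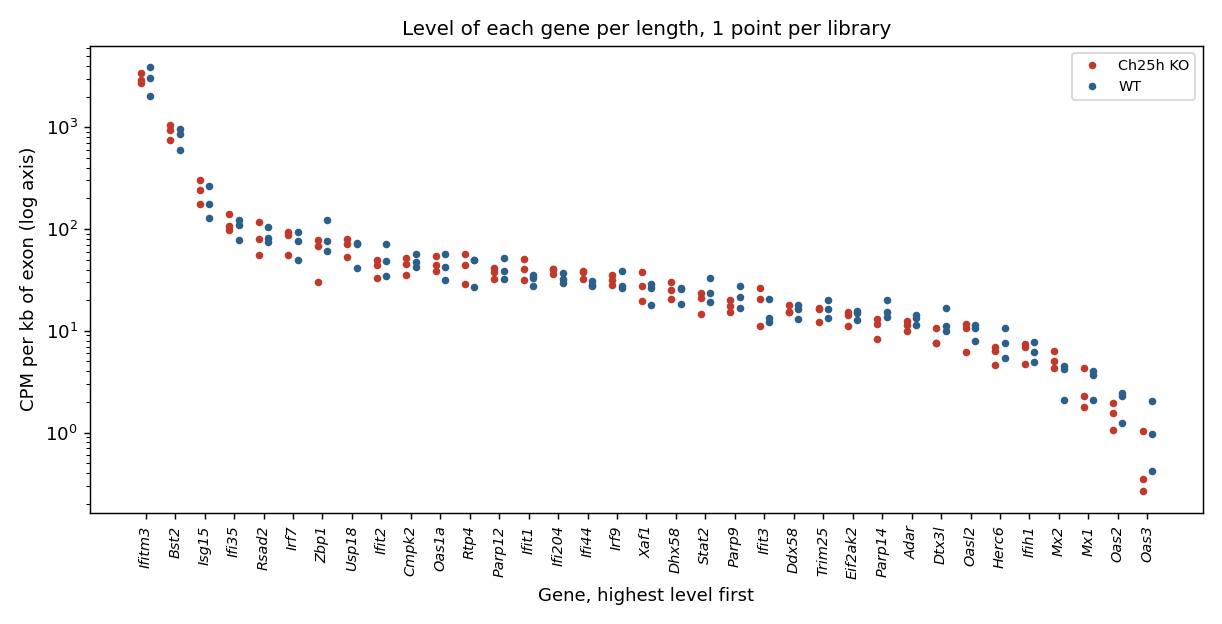
CPM per kilobase of exon on a log axis for the 35 genes, ordered from the highest mean level, with 1 point per library and Ch25h KO left of WT. Ifitm3, Bst2 and Isg15 lead and Oas3 is last, and the points of the genotypes overlap in all genes but Parp14 and Ifi44.

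The spread between libraries of a genotype is set here beside the difference between genotypes. A range over 3 libraries tends to exceed a difference of group means even without an effect. The counts that follow are thus no result about these genes, and they were not made over all genes. The log2 range inside Ch25h KO exceeded the difference between the genotype means in 31 of 35 genes and the range inside WT did so in 33. The median range was 0.56 inside Ch25h KO and 0.70 inside WT, against a median absolute difference of 0.20 between genotypes. Over all tested genes these medians were 0.40, 0.46 and 0.15, in the same order. The libraries ranked alike in most of these genes. Ch25h KO library 3 was the lowest of its group in 30 of 35 genes, against 35.8% of all tested genes, and WT library 2 was the lowest of its group in 29 of 35, against 33.6%. The score of the set, its mean log2 deviation from the WT mean, was 0.13, 0.08 and -0.37 in Ch25h KO libraries 1, 2 and 3, against 0.10, -0.31 and 0.22 in WT libraries 1, 2 and 3. The genotype means of the score were -0.05 ± 0.28 in Ch25h KO and, by construction, 0 ± 0.28 in WT (SD, n = 3 each). The median log2 fold change of the set was 0.14 without Ch25h KO library 3, in which reads of Ch25h remained, and -0.19 without WT library 2.

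Markers of other cells and of handling also varied between these libraries. The 14 melanoma markers, all in the table, summed to 151 to 372 CPM in Ch25h KO, against 142 to 303 CPM in WT, and the 16 dissociation stress genes, all in the table, to 3517 to 6353 CPM in Ch25h KO, against 3367 to 8952 CPM in WT. For libraries 1, 2 and 3 in turn the melanoma marker score was 0.89, 0.45 and -0.15 in Ch25h KO and 0.75, -0.20 and -0.56 in WT. The leukocyte marker score was -1.30, 0.94 and -0.23 in Ch25h KO and 1.00, -1.39 and 0.39 in WT. A score of dissociation stress genes was -0.62, -0.09 and 0.27 in Ch25h KO and -0.28, -0.63 and 0.91 in WT. WT library 2 was thus lowest in the antiviral, leukocyte and stress scores of its group, while Ch25h KO library 3, the lowest in the antiviral score, was the lowest of its group in the melanoma score and not in the leukocyte or stress score. The 13 lymphatic markers tested had a score of -0.33, -0.05 and -0.18 in Ch25h KO and -0.21, 0.18 and 0.04 in WT, with 9 of 13 lower in mean and Reln and Stab2 without overlap. The 7 blood endothelial markers tested had a score of -0.35, -0.35 and -0.15 in Ch25h KO and 0.08, 0.0041 and -0.09 in WT, so that every Ch25h KO library lay below every WT library. None of these markers was called, and the smallest adjusted p among them was 0.836 in limma, for the fenestral gene Plvap, at 1309, 1090 and 1183 CPM in Ch25h KO and 1497, 1619 and 2519 CPM in WT. Of the 7 blood endothelial markers 5 had a lower mean in Ch25h KO and 2 a higher one. Emcn, the next of them by p, had the higher mean in Ch25h KO, at 33.7 CPM against 22.3 CPM in WT. The part of all these markers in the antiviral values was not tested. In RNA from pooled cells, fewer cells of a type and less RNA per cell cannot be told apart.

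Inside WT the antiviral genes peaked in different libraries, a split drawn after their values were seen. In 19 genes, among them Ifit1, Isg15, Irf7, Mx2, Usp18 and Bst2, WT library 1 was the highest, and their median log2 fold change was 0.11, with 14 higher and 5 lower in Ch25h KO. In 15 genes, among them Stat2, Zbp1, Parp9, Dtx3l, Parp14, Herc6, Ifit2 and Oas3, WT library 3 was the highest, and their median was -0.25, with 3 higher and 12 lower. Ddx58 peaked in WT library 2. The split uses the same WT values as the fold changes, so no test was made of it.

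The Ifit genes lie beside Ch25h on chromosome 19. In mm10 Ch25h occupies 34473778 to 34475164 on the minus strand, Ifit2 34550694 to 34576419, Ifit3 34583531 to 34588731 and Ifit1 34640871 to 34650009, the last 3 on the plus strand. Their starts lie 75.5, 108 and 166 kb from that of Ch25h. Within 500 kb of the Ch25h start 13 other genes were tested, and none passed. The lysosomal lipase gene Lipa, which lies between Ch25h and Ifit2, was at 114, 137 and 110 CPM in libraries 1, 2 and 3 of Ch25h KO, against 73.7, 97.9 and 115 CPM in libraries 1, 2 and 3 of WT (log2 fold change 0.35 ± 0.18 SE; limma, adjusted p = 0.941). The Ifit paralogs Ifit1bl1, Ifit3b and Ifit1bl2 had log2 fold changes of 0.51, 0.40 and 0.55. Slc16a12, Pank1 and Kif20b beyond them lay between -0.05 and 0.16. Stambpl1, Acta2 and Fas, on the other side, lay between -0.38 and -0.08. Ifit3 and Ifit3b are close copies, and the sources used here do not say how reads that match both were counted.

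**Figure D4:**
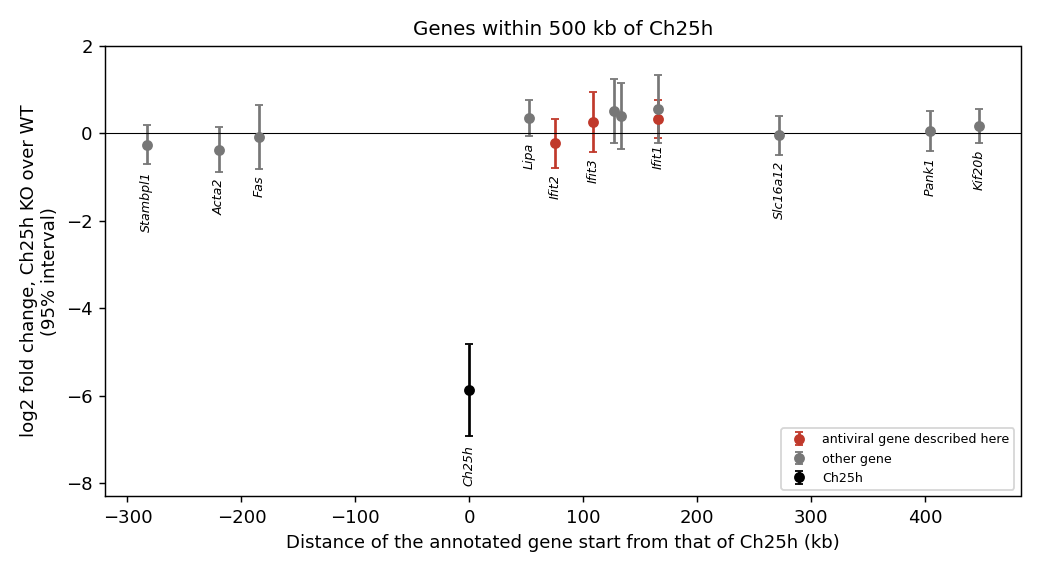
Log2 fold changes of Ch25h KO over WT with 95% intervals for Ch25h and the 13 other tested genes within 500 kb, against the distance of each gene start from that of Ch25h in kilobases. Ch25h stands at -5.87, and the intervals of all its neighbours include 0. The unnamed points are Ifit1bl1, Ifit3b and Ifit1bl2.

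Of the ligands, receptors and transducers of the pathway, 14 of 35 listed genes were in the table and tested, and none was called. None of the 14 encodes an interferon, so the genes for interferon alpha and beta were not analysed here. The receptor chain gene Ifnar1 averaged 128 ± 8.03 CPM in Ch25h KO, against 138 ± 33.2 CPM in WT, and Ifnar2 averaged 166 ± 8.2 CPM in Ch25h KO, against 174 ± 16.6 CPM in WT (SD, n = 3 each). Means were lower in Ch25h KO for 12 of the 14 genes and the median was -0.09. At an unadjusted p under 0.05 (limma) 3 of the 14 were lower and 0 higher, against 3.79% and 1.62% of all tested genes. Without overlap 1 was lower, against 5.78% of all tested genes, and 0 were higher. This list shares 2 genes with the list led by interferon gamma that is given below. The genes of smallest p were Irf8, an interferon-regulated transcription factor, and Socs1, a feedback inhibitor of JAK kinases. Irf8 averaged 366 ± 70.4 CPM in Ch25h KO, against 600 ± 175 CPM in WT without overlap, and Socs1 averaged 26.1 ± 7.81 CPM in Ch25h KO, against 57.6 ± 31.4 CPM in WT (SD, n = 3 each; limma, adjusted p = 0.836 for both).

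A list of genes that act upstream of interferon was tested in 17 of 22 cases. It holds sensors of nucleic acid, their adaptors and kinases, and enzymes that degrade nucleic acid or nucleotides. Of the 17 genes 0 were called, 3 had higher and 14 lower means in Ch25h KO, and the median was -0.14. At an unadjusted p under 0.05 (limma) 1 of the 17 was lower and 0 higher, against 3.79% and 1.62% of all tested genes. Mavs, the mitochondrial adaptor of RIG-I and MDA5, averaged 33.4 ± 4.89 CPM in Ch25h KO, against 36.7 ± 3.8 CPM in WT (SD, n = 3 each). Samhd1, which degrades deoxynucleotides and limits viral reverse transcription, had the smallest p. It was at 113, 118 and 70.1 CPM in libraries 1, 2 and 3 of Ch25h KO, against 149, 136 and 286 CPM in libraries 1, 2 and 3 of WT (log2 fold change -0.87 ± 0.29 SE; limma, adjusted p = 0.836). Rnaseh2c, a subunit of the nuclease that removes RNA from DNA, followed with 74.7 ± 11.7 CPM in Ch25h KO, against 61 ± 21.4 CPM in WT (SD, n = 3 each).

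Wider interferon lists placed the 35 genes beside their relatives. Among 68 tested further type I targets 0 were called, 23 had a higher and 45 a lower mean in Ch25h KO, and the median was -0.17. At an unadjusted p under 0.05 (limma) 11 of the 68 were lower and 0 higher, against 3.79% and 1.62% of all tested genes. Without overlap 9 were lower and 0 higher, against 5.78% and 4.38% of all tested genes. Ifi47 and Tgtp1, GTPases that are also on the interferon gamma list, had the smallest p of the 68. Without these 2 the median over 66 genes was -0.14, and 9 of the 66 were lower at an unadjusted p under 0.05 (limma). The 39 tested genes led by interferon gamma, such as Irf1, the Gbp genes and the MHC class II genes, had a median of -1.23, with 38 lower means, 1 higher and 0 called. At an unadjusted p under 0.05 (limma) 35 of the 39 were lower, against 3.79% of all tested genes, and 0 were higher. Without overlap 18 were lower, against 5.78% of all tested genes, and 0 were higher. Of these 39, 29 had a log2 fold change below that of Oas3, the lowest of the 35 antiviral genes. The score of the interferon gamma list was -1.09, -0.69 and -2.14 in Ch25h KO libraries 1, 2 and 3, against -0.39, -0.43 and 0.82 in WT libraries 1, 2 and 3. Its lowest library was Ch25h KO library 3 and its highest WT library 3, which were also the lowest and the highest in the antiviral score. Its genes of smallest p were the protease inhibitor gene Serpina3g, which averaged 72.6 ± 43.4 CPM in Ch25h KO, against 230 ± 121 CPM in WT, and the transcription factor gene Batf2, which averaged 26.1 ± 13 CPM in Ch25h KO, against 88.2 ± 49.3 CPM in WT (SD, n = 3 each; limma, adjusted p = 0.836 for both). The lists were not compared by a test. Without library 3 of both groups the medians were 0.20 for the antiviral genes and -0.44 for the interferon gamma list, whose median was -0.74 without Ch25h KO library 3 alone and -0.82 without WT library 3 alone.

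**Figure D5:**
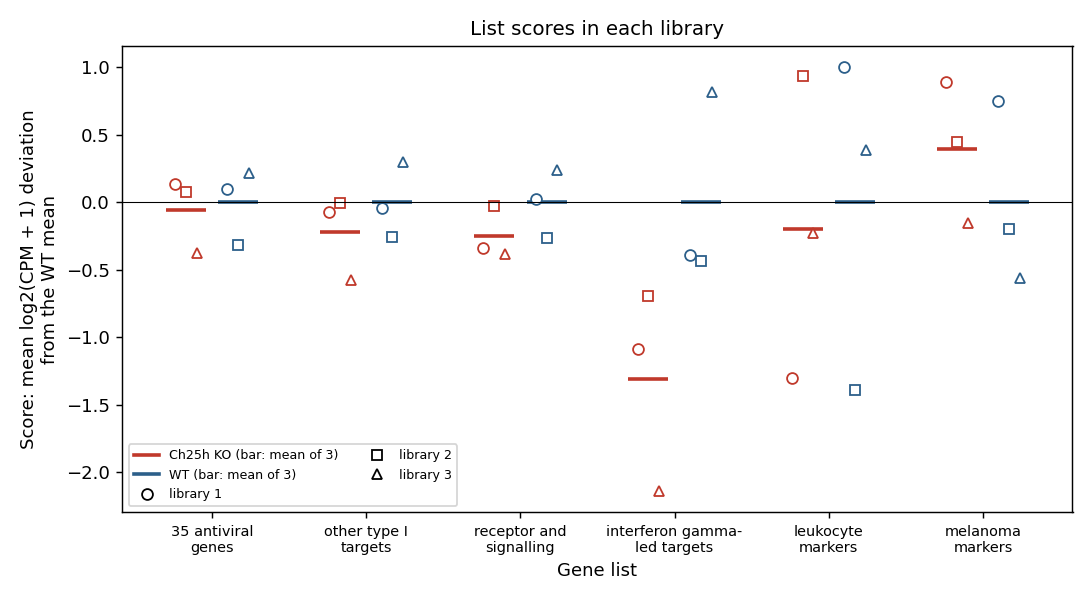
Score of each gene list, the mean log2(CPM + 1) deviation from the WT mean, in each library, with Ch25h KO in red left of WT in blue, a symbol per library number and a bar at each group mean. The antiviral scores of the genotypes interleave between -0.37 and 0.22, and those of the interferon gamma list run from -2.14 to 0.82 with all Ch25h KO libraries below all WT libraries.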

How the data were processed

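The authors deposited 1 table of normalized signal on the CPM scale, with a column per library and a row per gene symbol. STAR 2.7.0, HTSeq 0.9.1, edgeR 3.26.8 and mm10 are named in the submitters' processing notes, with no roles; the sources used here do not give the annotation, strand setting or gene filter. Per the labels' protocols, cDNA came from the SMART-Seq v4 kit, which does not mark strand. All values were whole multiples of the smallest value above 0 in their library (100% within 0.01 of a read), which gave back reads; 1 read was worth 0.0216 to 0.0268 CPM. Reads without molecular identifiers are not independent molecules.

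Group was the sole term in limma 3.58.1 (R 4.3.3), on log2(CPM + 1) with a trended variance prior and a mean of at least 1 CPM. This scale understates changes of low genes. The members, role groups, lists and tests were chosen with earlier results of these data known. By rule, values in each library are given for Ch25h. They are also given for the 2 genes of smallest p and the most abundant gene of each role group. Genes near Ch25h are named, and of them Lipa, Ifit1 and Ifit2 alone have values in each library. Of each further interferon list the 2 of smallest p are named. Ifnar1, Ifnar2, Mavs and single markers were named beyond this rule after their values were seen. Older symbols were matched through RefSeq synonyms: Ifit1bl1, Ifit3b and Ifit1bl2 are listed as Gm14446, I830012O16Rik and 2010002M12Rik. Positions and exon lengths are from GENCODE M21. Exons of 12 of the 35 genes overlap another gene, 8 of them on the other strand. Members of the Ifit, Oas, Mx, Ifitm and p200 families have close relatives. Alternatives included edgeR 4.0.16 and DESeq2 1.42.0 on the recovered reads; limma was tested on simulated data.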

Additional observations from a re-analysis of the deposited data

How the results depend on the processing

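Under 18 alternatives 0 of 35 antiviral genes passed. Their median ran from -0.19 (without WT library 2) to 0.20 (without library 3 of both groups). The signs moved with it, from 8 higher and 27 lower in the first of these fits to 29 higher and 6 lower in the second. Over all genes the count past the threshold was 0 with a pseudocount of 0.25 and 0 in edgeR (713 at an unadjusted p under 0.05), 17 in DESeq2 and from 0 to 2 leaving out single libraries, 0 without WT library 1 and 2 without WT library 2. The Ch25h call was lost with a pseudocount of 0.25 (-7.26), in edgeR (-6.55) and in DESeq2 (-6.53), and leaving out single libraries gave -6.52 to -5.53, with the call lost without WT library 1 (limma, adjusted p = 0.0792). The cause was not tested. The labels do not say whether library numbers pair the libraries. Deviations from the group means correlated at 0.24, -0.06 and -0.10 for the same numbers and at -0.16 to 0.27 for different ones. So few values cannot settle a pairing. With a block for the number the limma count over all genes was 1, with 850 at an unadjusted p under 0.05 against 648. The median of the antiviral genes was then 0.01. Signs turned in 22 of the 35 genes, none of them called. With library weights Irf9 was -0.13, Ddx58 -0.036 and Rtp4 -0.062. Without library 3 of both groups Stat2 was 0.061, Zbp1 0.11, Trim25 0.025, Herc6 0.036, Parp12 0.044, Ifit2 0.20, Oasl2 0.22, Eif2ak2 0.060, Rsad2 0.13, Cmpk2 0.11 and Mx1 0.16. Leaving out single libraries gave -0.14 to 0.35 for Irf7, -0.040 to 0.23 for Irf9, -0.10 to 0.33 for Usp18, -0.15 to 0.20 for Ifih1, -0.053 to 0.26 for Dhx58, -0.073 to 0.14 for Ddx58, -0.27 to 0.028 for Trim25, -0.10 to 0.31 for Oas1a, -0.28 to 0.17 for Oasl2, -0.21 to 0.031 for Eif2ak2, -0.37 to 0.16 for Rsad2, -0.19 to 0.28 for Ifitm3, -0.041 to 0.44 for Xaf1, -0.25 to 0.29 for Rtp4, -0.013 to 0.30 for Ifi35, -0.29 to 0.059 for Parp12 and -0.48 to 0.036 for Ifit2. Of the genes with no overlap between groups, Parp14 ran from -0.71 to -0.37 and Ifi44 from 0.28 to 0.40 over these. With 3 libraries a group, the intervals above set what can be seen.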
